A study of Mus musculus with 3 samples.

Results

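The Sox genes encode transcription factors that share an HMG box, a domain that binds the minor groove of DNA at a short motif. They fall into groups by sequence, and members of a group often have overlapping roles. In the pituitary, Sox2 and Sox9 mark the stem cells (SCs) that line the cleft, Sox4 and Sox11 are known from progenitors and differentiating neuroendocrine cells, and Sox17 and Sox18 from blood vessels. Described here are 10 Sox genes, Sox2, Sox9, Sox10, Sox4, Sox11, Sox12, Sox5, Sox6, Sox17 and Sox18. They were chosen by name and not by a rule on their values, though with earlier results of these data known. They are 10 of the 17 Sox genes, and of the 17775 genes, with a row in any of 3 single-cell count tables. Of the 10, 9 had a row in all 3 tables, and Sox10 had none in P27NULL.

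The 3 droplet libraries were made from dissected intermediate lobes (ILs) of mice at 3 months of age, 1 library per genotype. All 3 genotypes carried 1 Sox9iresCreERT2 allele, a tamoxifen-inducible Cre expressed from Sox9, and the study's methods add a Rosa26ReYFP/+ reporter. WT carried nothing further, P27NULL was also p27-/-, and S2CK was p27-/- with 1 floxed Sox2 allele (Sox2fl/+), which Cre can delete in Sox9-expressing cells and which their descendants then lack. Per the labels, all 3 were given tamoxifen by gavage when 4 weeks old. The study's text places the induction for this experiment at birth, and which holds is not known. Animals were pooled in each library, so no value has a replicate check and no test between genotypes was possible. Intervals are exact 95% intervals that cover counting error of unique molecular identifiers (UMIs) only.

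The libraries held 2020, 4153 and 3488 cells and 8332285, 15588317 and 19239147 UMIs in WT, P27NULL and S2CK, in this order throughout. The lowest UMI count of a cell was 502, 1005 and 1002, so that WT holds shallower cells. Pairs of libraries shared 2 to 4 cell barcodes. Clusters, made without any Sox gene (SCs and melanotrophs in each library, other types in the 3 libraries together), were named from marker lists, and 136, 104 and 82 cells were SC-like (markers Cyp2f2, Lcn2, Mia, Cpxm2, Rbpms and Ednrb) and 1274, 3534 and 2885 melanotroph-like (Esm1, Drd2, Oacyl, Pax7, Rbfox3, Pcsk2 and Megf11). All 6 SC markers were detected in the SC-like cells of each library, at a summed level of 9990, 8401 and 5345 UMIs per 1000000 (CPM) against 77.8, 65.2 and 37.2 CPM in the other cells. WT had no row for Xist, the RNA made from the inactive X chromosome, and 28.7% of its cells had a UMI of 1 of 4 Y-linked genes. In P27NULL 18.9% of cells had an Xist UMI and 18.6% a Y-linked one. In S2CK 93.9% had an Xist UMI and 0 of 3488 a Y-linked one, so that sex and genotype cannot be told apart between WT and S2CK. The study describes the S2CK and P27NULL libraries as pools of male and female animals, and for S2CK these data go against that.

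Cdkn1b, which encodes the cyclin-dependent kinase inhibitor p27, was read first as a check of the labels. Melanotroph-like cells held 210 UMIs (34.4 CPM) in WT, 422 UMIs (30.8 CPM) in P27NULL and 275 UMIs (16.7 CPM) in S2CK. The library labelled P27NULL thus differed from WT by a log2 ratio of −0.16 (−0.40 to 0.09), while S2CK was 1.04 below WT on the log2 scale (−1.31 to −0.77 for the ratio). Neither the labels nor the study's text says which part of Cdkn1b the p27 allele lacks, or which part of Sox2 is floxed. The study cites earlier work for these alleles, which was not consulted. Whether the 3′ ends counted here lie inside the deletions was thus not settled here, and the library labelled P27NULL stands under its label.

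Sox2 and Sox4 were the members with intervals below 0 in SC-like cells of S2CK against both other libraries, and the 250 bases before their starts (RefSeq, GRCm38.p6) are shown for that reason. Of the 10 members, 6 had an entry. Capitals mark ACAAAG, a core of the motif that Sox proteins bind, searched on both strands.
Sox2, chr3:34649745-34649994, + strand: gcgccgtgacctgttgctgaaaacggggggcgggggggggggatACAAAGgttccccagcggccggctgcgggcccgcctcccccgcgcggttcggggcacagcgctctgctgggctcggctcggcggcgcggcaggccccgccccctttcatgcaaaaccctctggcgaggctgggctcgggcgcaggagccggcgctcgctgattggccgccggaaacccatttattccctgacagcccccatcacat
Sox4, chr13:28953700-28953949, − strand: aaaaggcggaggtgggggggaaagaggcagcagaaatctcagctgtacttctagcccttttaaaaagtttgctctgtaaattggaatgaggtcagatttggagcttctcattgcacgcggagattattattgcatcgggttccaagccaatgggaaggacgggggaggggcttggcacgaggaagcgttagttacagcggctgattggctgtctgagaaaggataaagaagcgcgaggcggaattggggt
The motif occurred 1 time before the Sox2 start and 0 times before that of Sox4. Of 32851 such windows over all genes, 5408 (16.5%) held it. Among the other matched members, Sox6, which has several starts, also held it.

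Sox2, a pluripotency and progenitor factor, was read at its highest level in SC-like cells of each library. Its SC-like sums were 150 UMIs (282 CPM, 239 to 331) in WT, 117 UMIs (309 CPM, 256 to 371) in P27NULL and 83 UMIs (135 CPM, 107 to 167) in S2CK. The S2CK interval lay below the other intervals, which overlapped each other. The log2 ratio of S2CK was −1.20 (−1.62 to −0.78) against P27NULL, a level 2.30-fold lower, and −1.06 (−1.47 to −0.67) against WT, 2.09-fold lower. P27NULL against WT gave 0.13 (−0.23 to 0.49).

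Sox2 was also lower in S2CK in other cell types. Melanotroph-like cells, the hormone-producing cells of the IL, held 286 UMIs (46.9 CPM, 41.6 to 52.6) in WT, 564 UMIs (41.2 CPM, 37.9 to 44.7) in P27NULL and 430 UMIs (26.2 CPM, 23.7 to 28.8) in S2CK. The ratio of S2CK there was −0.66 (−0.84 to −0.47) against P27NULL and −0.84 (−1.06 to −0.62) against WT, short of 2-fold. P27NULL against WT gave −0.19 (−0.39 to 0.02), and thinning moved this ratio further below 0. Corticotroph-like cells of the neighbouring anterior lobe held 42 UMIs (98.8 CPM), 28 UMIs (99.97 CPM) and 8 UMIs (26.6 CPM), and S2CK was 3.75-fold below P27NULL (log2 ratio −1.91, −3.25 to −0.74). These cells were led by Tnnt1, Nnat and Rprml. Of their 5 markers 4, 3 and 5 were detected, and 4, 2 and 4 stood above the other cells, with Avpr1b at 3, 0 and 1 UMIs. With each library clustered alone, only S2CK had a cluster named corticotroph, so the name is less firm in WT and P27NULL. Macrophage- or microglia-like cells, which should lack Sox2, held 6 UMIs (24.4 CPM), 6 UMIs (17.7 CPM) and 1 UMI (2.5 CPM). From these few UMIs, a reading of free RNA, the ratio of S2CK was −3.29 (−8.81 to −0.24) against WT and −2.82 (−8.35 to 0.22) against P27NULL. The reading of free Sox2 RNA was thus lower in S2CK than in WT too, and its part in the other ratios was not tested.

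As deposited, the share of cells with a Sox2 UMI was higher in melanotroph-like cells than in that background, at a greater depth. A Sox2 UMI was found in 60.3%, 52.9% and 46.3% of SC-like cells, in 19.2%, 13.5% and 13.1% of melanotroph-like cells and in 3.70%, 3.31% and 0.826% of macrophage- or microglia-like cells. Median depth was 2027, 2317 and 3561.5 UMIs in SC-like cells, 4163.5, 2825 and 5016 in melanotroph-like cells and 1539, 1964 and 2670 in macrophage- or microglia-like cells. With each cell thinned to 1500 UMIs, which left out 43, 26 and 8 shallower SC-like cells, the shares were 37.6% (27.8 to 48.3), 30.8% (20.8 to 42.2) and 13.5% (6.68 to 23.5) in SC-like cells. In melanotroph-like cells they were 8.39% (6.90 to 10.1), 5.83% (5.04 to 6.70) and 3.93% (3.24 to 4.71). In macrophage- or microglia-like cells they were 2.90% (2 of 69), 2.41% (2 of 83) and 0%, where 0 of 96 cells allows up to 3.12%. With so few background cells, whether the melanotroph-like shares of WT and P27NULL lie above the background at equal depth could not be settled. In S2CK the melanotroph-like interval (3.24 to 4.71) began above the limit of 3.12% from 0 of 96 cells. Its CPM interval, 23.7 to 28.8, also lay above that of its macrophage- or microglia-like cells, 0.06 to 13.9 from 1 UMI. At equal depth S2CK had the smallest share of SC-like and of melanotroph-like cells, and the limit on its 0 macrophage- or microglia-like cells reaches above the shares of the other libraries.

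Per cell, 34 of 136, 24 of 104 and 21 of 82 SC-like cells (25%, 23.1% and 25.6%) had 2 or more Sox2 UMIs, with up to 8, 11 and 9 in a cell, and in melanotroph-like cells 2.98%, 1.75% and 1.63%, with up to 3, 5 and 4. The share of SC-like cells with 2 or more UMIs thus did not follow the CPM, and no order was read from it, the S2CK cells being the deepest. Of the corticotroph-like cells 26, 25 and 8 had a Sox2 UMI. Tbx19, the factor that drives Pomc, was at 145, 114 and 204 CPM in them and at 143, 90.4 and 146 CPM in those without. Pax7, which sets the melanotroph fate, was at 51.8, 57.1 and 76.5 CPM with and at 15.2, 28.6 and 38.3 CPM without Sox2. The melanotroph convertase Pcsk2 was lower with Sox2 in WT (155 against 207 CPM) and higher in P27NULL (814 against 495 CPM) and S2CK (561 against 249 CPM). All corticotroph-like cells together held 10, 10 and 13 UMIs of Pax7 and 61, 27 and 46 of Tbx19. Those with Sox2 were deeper, at a median of 3017.5, 2239 and 3968 UMIs against 2481, 1926 and 3078. No link of these genes to Sox2 was read from so few UMIs.

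Among the other cell types, Sox2 followed the SC-like cells in WT with pituicyte-like cells, the glia of the neural lobe (12 UMIs, 126 CPM, 64.9 to 220), and corticotroph-like cells (71.2 to 134 CPM), whose intervals overlapped. In the 6 melanotroph-like clusters of WT the Sox2 level ran from 38.1 to 63.8 CPM, in the 8 of P27NULL from 39.3 to 46.7 CPM and in the 9 of S2CK from 15.7 to 37.6 CPM. The ranges of these point values in WT and P27NULL did not overlap that of S2CK, but intervals of single clusters did. The lowest cluster of WT had 38.1 CPM (25.9 to 54.1) and that of P27NULL 39.3 CPM (32.5 to 47.1). The highest cluster of S2CK had 37.6 CPM (28.2 to 49.2). Clusters of 1 library share their source and are no replicates.

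**Figure D1:**
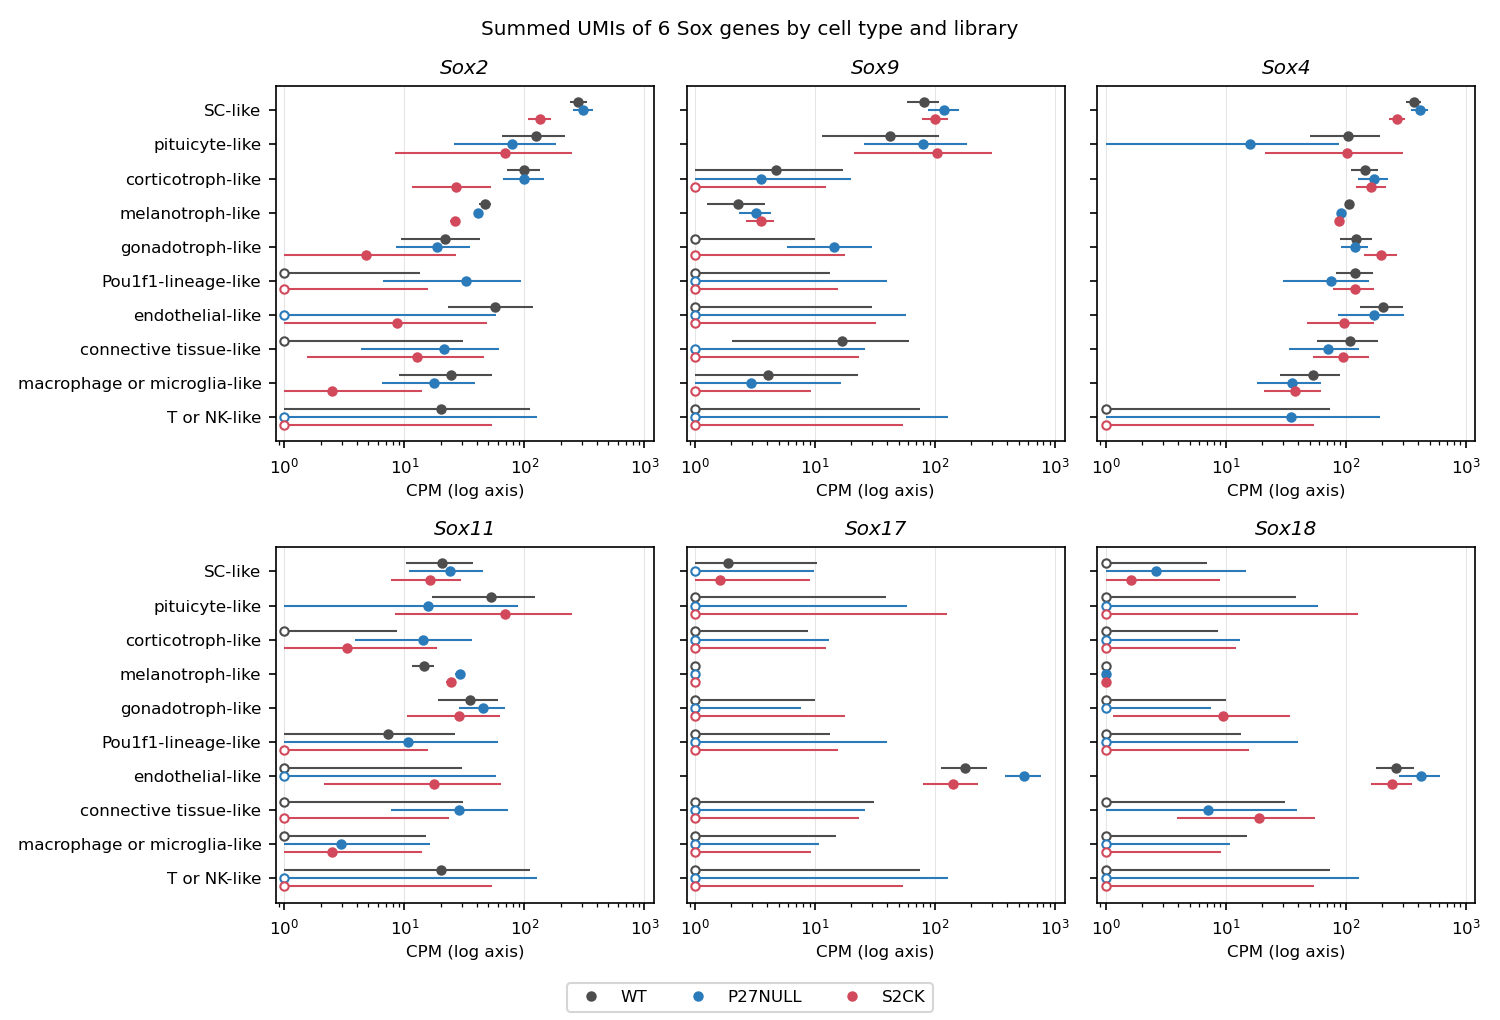
Level of 6 Sox genes in CPM on a log axis by cell type, with 1 point per library (WT grey, P27NULL blue, S2CK red) and exact 95% Poisson intervals as lines. Open points had 0 UMIs and, like values under 1 CPM, are drawn at 1 CPM; Sox2 in SC-like cells sits at 282, 309 and 135 CPM, and Sox17 and Sox18 stand out in endothelial-like cells.

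In P27NULL the 104 SC-like cells included 18 with an Xist UMI and no Y-linked one, called female here, and 86 with no Xist UMI, called male. Only 15 of these 86 had a Y-linked UMI. In S2CK, where no Y-linked UMI was found, 10 of 82 SC-like cells also had no Xist UMI. Cells called male, here and below, can thus include female cells in which Xist was missed. Sox2 was at 494 CPM (24 UMIs) in the female cells and at 282 CPM (93 UMIs) in the male ones. S2CK was below both, with a log2 ratio of −1.87 (−2.54 to −1.15) against the female and −1.07 (−1.51 to −0.62) against the male cells. Male P27NULL cells against WT, also male, gave 0.00 (−0.39 to 0.38). Female P27NULL cells gave 0.81 (0.12 to 1.44) against WT and 0.81 (0.10 to 1.47) against the male cells, from 18 cells. Among the cell types split by sex, which were SC-like, melanotroph-like and corticotroph-like cells, this held in SC-like cells only. Female against male P27NULL gave −0.15 (−0.46 to 0.16) in melanotroph-like cells (110 and 445 UMIs) and −0.70 (−2.19 to 0.60) in corticotroph-like cells (7 and 20 UMIs). Male and female cells came from different animals, so sex and animal cannot be told apart. SC-like cells over 10000 UMIs numbered 12, 6 and 23, and their level of Pcsk2, a melanotroph convertase, was 1196, 924 and 441 CPM against 281, 311 and 124 CPM in the rest. Without these deep cells Sox2 was at 307, 311 and 115 CPM, so that the difference was as large.

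Sox9, which with Sox2 marks the SCs and drives the Cre of these mice, had no interval off 0 between libraries in SC-like cells. These held 43 UMIs (80.8 CPM, 58.5 to 109) in WT, 45 UMIs (119 CPM, 86.8 to 159) in P27NULL and 62 UMIs (101 CPM, 77.2 to 129) in S2CK, and all 3 intervals overlapped. The ratio of S2CK was −0.24 (−0.82 to 0.35) against P27NULL and 0.32 (−0.27 to 0.91) against WT, and P27NULL against WT was 0.56 (−0.08 to 1.20). These intervals leave room for a change of either sign, and after thinning each cell to 1500 UMIs the 3 ratios were −1.85, −0.52 and 1.33. In SC-like cells of at most 10000 UMIs Sox9 was at 82.0, 119 and 74.7 CPM (28, 32 and 15 UMIs), and in the 12, 6 and 23 deeper cells, with more Pcsk2, at 78.7, 120.1 and 113 CPM (15, 13 and 47 UMIs). Most Sox9 UMIs of S2CK thus came from its deep cells, and whether Sox9 was lower in S2CK could not be settled at this depth. All 3 genotypes carry the modified Sox9 allele.

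Sox9 was at 2.29 CPM (14 UMIs), 3.21 CPM (44 UMIs) and 3.53 CPM (58 UMIs) in melanotroph-like cells, and 1.10%, 1.13% and 1.80% of them had a UMI. In macrophage- or microglia-like cells it was at 1, 1 and 0 UMIs, or 0.741%, 0.826% and 0% of cells, and with the greater depth of melanotroph-like cells the shares could not be told from that background. Pituicyte-like cells held 4, 5 and 3 UMIs (41.9, 79.0 and 103 CPM), with intervals that overlapped those of SC-like cells in each library. In gonadotroph-like cells of P27NULL there were 7 UMIs of Sox9 (14.4 CPM, 5.80 to 29.7) and in those of WT and S2CK 0. In P27NULL 3 of these cells held Sox9 with Sox2, at a median of 7378 UMIs, and 2 held Sox9 alone. Those with neither gene had a median of 2416 UMIs. No cell was removed as a doublet, and the part of doublets here was not tested.

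UMIs of Sox2 and Sox9 were seen together in 19 of 136 SC-like cells of WT (14.0%, 8.63 to 21.0), 20 of 104 of P27NULL (19.2%, 12.2 to 28.1) and 16 of 82 of S2CK (19.5%, 11.6 to 29.7). Neither gene had a UMI in 47, 40 and 31 cells (34.6%, 38.5% and 37.8%). Cells with Sox2 but no Sox9 numbered 63, 35 and 22, and those with Sox9 but no Sox2 7, 9 and 13. Among SC-like cells with a Sox2 UMI, 23.2% (19 of 82), 36.4% (20 of 55) and 42.1% (16 of 38) also had Sox9, against 13.0% (7 of 54), 18.4% (9 of 49) and 29.5% (13 of 44) of those without.

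Depth moved with this co-detection. Cells with a Sox2 UMI had a median of 2714.5, 3306 and 10202 UMIs, and those without 1655, 1715 and 2694.5. Thinned to 1500 UMIs, both genes were seen in 2 of 93 cells (2.15%, 0.262 to 7.55), 6 of 78 (7.69%, 2.88 to 16.0) and 1 of 74 (1.35%, 0.0342 to 7.30). Sox9 was then seen in 2 of 35 Sox2-positive and 6 of 58 Sox2-negative cells of WT, in 6 of 24 and 8 of 54 of P27NULL, and in 1 of 10 and 4 of 64 of S2CK. At equal depth the order in WT was turned (5.71% with and 10.3% without Sox2), so that no link between the genes within cells was detectable at this depth.

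**Figure D2:**
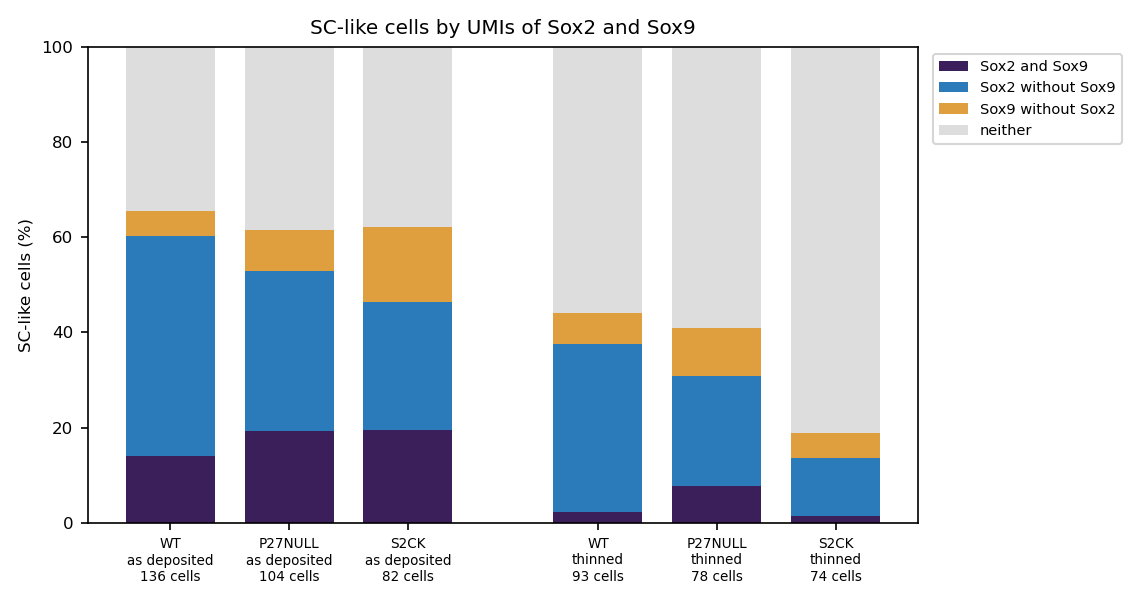
Share of SC-like cells (%) with UMIs of Sox2 and Sox9, of 1 of them or of neither, stacked to 100% for each library, as deposited (left) and with each cell thinned to 1500 UMIs (right). Cells with both make up 14.0%, 19.2% and 19.5% as deposited and 2.15%, 7.69% and 1.35% after thinning.

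Sox4, of the group with Sox11 and Sox12 that acts in progenitors and differentiating neurons, was found in every endocrine cell type. SC-like cells held 196 UMIs (368 CPM, 319 to 424), 156 UMIs (413 CPM, 350 to 483) and 166 UMIs (269 CPM, 230 to 314). S2CK lay below both other libraries, with a log2 ratio of −0.61 (−0.94 to −0.29) against P27NULL and −0.45 (−0.76 to −0.15) against WT, less than the 2-fold seen for Sox2. Against the female P27NULL cells, with 10 Sox4 UMIs, the ratio was 0.39 (−0.53 to 1.48), and against the male ones −0.72 (−1.05 to −0.39). After thinning the ratio of S2CK to WT was −0.05. A Sox4 UMI was in 58.1%, 56.7% and 65.9% of SC-like cells and in 37.6%, 44.9% and 33.8% after thinning. Among the 82, 55 and 38 SC-like cells with a Sox2 UMI, 62.2%, 63.6% and 84.2% had Sox4, and among those without, 51.9%, 49.0% and 50%, at the unequal depths given for Sox9. Macrophage- or microglia-like cells had it in 8.89%, 9.09% and 10.7% of cells.

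Melanotroph-like cells held 645 UMIs of Sox4 (106 CPM, 97.7 to 114), 1241 (90.6 CPM, 85.7 to 95.8) and 1445 (87.9 CPM, 83.4 to 92.6), and WT was the highest. P27NULL against WT was −0.22 (−0.36 to −0.08) and S2CK against P27NULL −0.04 (−0.15 to 0.07), which turned to 0.09 with TMM factors. Within P27NULL its male cells were at 79.1 CPM (841 UMIs) and its female cells at 129 CPM (376 UMIs), a log2 ratio of 0.71 (0.53 to 0.89) of female to male, so that the pooled value lay between groups on either side of WT. Within P27NULL the cluster led by the cell cycle genes Hist1h2ap, Top2a and Ube2c had the lowest Sox4 level, 47.4 CPM (19 UMIs, 28.6 to 74.1). The other 7 had 71.7 to 108 CPM, and the interval of the next lowest (57.9 to 87.9) overlapped it. The cluster with Top2a among its leading genes did not take that place in S2CK, where 102 CPM (79.4 to 130) was the highest of 9 with overlapping intervals. In WT it was at 92.3 CPM (79.5 to 107).

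Outside these cells Sox4 was at 143, 171 and 163 CPM in corticotroph-like cells (61, 48 and 49 UMIs), whose intervals overlapped between libraries. In gonadotroph-like cells it was at 123, 120 and 196 CPM (45, 58 and 41 UMIs), and S2CK gave a ratio of 0.72 (0.10 to 1.32) against P27NULL and 0.68 (0.03 to 1.32) against WT, above both. Cells of the Pou1f1 lineage were at 120, 75.3 and 119 CPM and endothelial-like cells at 203, 172 and 96.2 CPM. SC-like cells had the highest Sox4 level of each library, with intervals in WT and P27NULL above those of every other named type.

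Sox11 was the member with the largest difference between P27NULL and WT in melanotroph-like cells. Its sums were 88 UMIs (14.4 CPM, 11.6 to 17.8), 400 UMIs (29.2 CPM, 26.4 to 32.2) and 403 UMIs (24.5 CPM, 22.2 to 27.03). P27NULL was 2.03-fold above WT (log2 ratio 1.02, 0.68 to 1.37) and S2CK 1.70-fold (0.77, 0.43 to 1.11; P27NULL 0.87 to 0.94 with TMM factors, another total, thinning or cells of at most 10000 UMIs), and S2CK against P27NULL was −0.25 (−0.46 to −0.05). A UMI was in 6.44%, 9.37% and 12.1% of the cells, and in 2.2% (1.46 to 3.19), 4.03% (3.37 to 4.78) and 3.47% (2.83 to 4.21) after thinning. In macrophage- or microglia-like cells there were 0, 1 and 1 UMIs. Among melanotroph-like cells with a Sox4 UMI, 7.61%, 15.6% and 15.3% had Sox11, and among those without, 5.80%, 7.37% and 10.4%. The cells with Sox4 were deeper, at a median of 4473, 4196 and 5415 UMIs against 4014, 2577 and 4830.5.

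The Sox11 level within P27NULL went with the sex of the cells. Its 2884 male melanotroph-like cells were at 33.8 CPM (359 UMIs) and its 639 female ones at 12.7 CPM (37 UMIs), a log2 ratio of female to male of −1.41 (−1.94 to −0.92). Male P27NULL cells were above male WT cells by 1.23 (0.89 to 1.58), and female ones gave −0.18 (−0.78 to 0.39) against WT. S2CK, in which no Y-linked UMI was found, was above the female P27NULL cells by 0.95 (0.46 to 1.47) and below the male ones by 0.46 on the log2 scale. Male and female cells came from different animals of 1 pool, so sex, animal and genotype cannot be told apart in these values. Gonadotroph-like cells held 13, 22 and 6 UMIs (35.4, 45.3 and 28.7 CPM) and SC-like cells 11, 9 and 10 UMIs (20.7, 23.8 and 16.2 CPM), with intervals that overlapped between libraries.

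**Figure D3:**
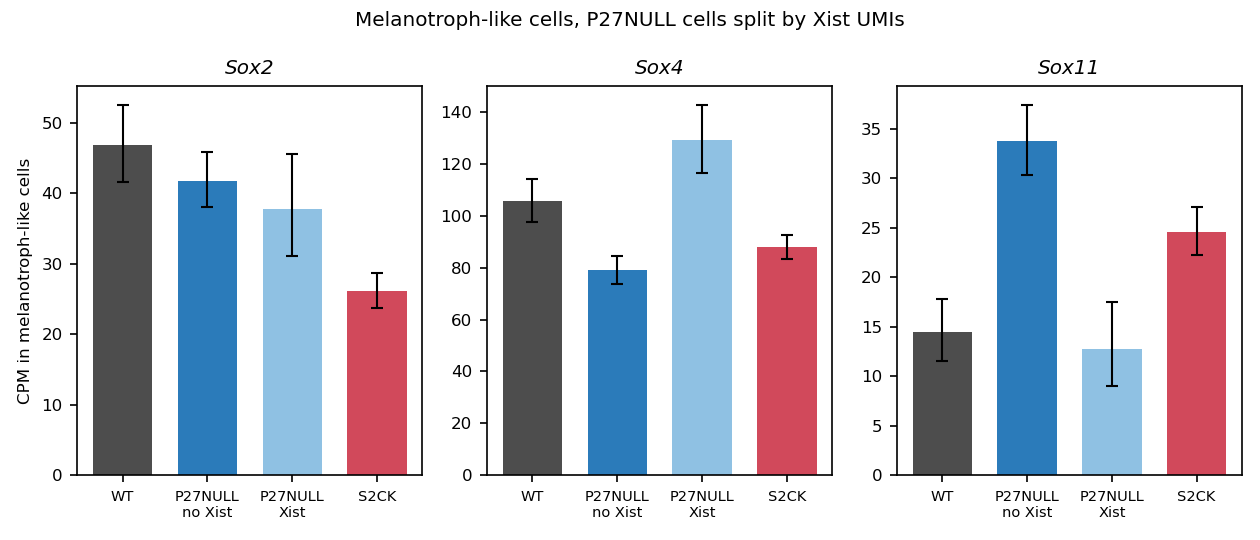
Level in CPM of Sox2, Sox4 and Sox11 in melanotroph-like cells of WT, of P27NULL cells without and with an Xist UMI, and of S2CK; bars are sums over cells and error bars exact 95% Poisson intervals. Sox11 is at 33.8 CPM in P27NULL cells without Xist and at 12.7 CPM in those with it, beside 14.4 CPM in WT and 24.5 CPM in S2CK.

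Sox12, the third gene of that group, was at 34 UMIs (5.57 CPM), 113 UMIs (8.25 CPM) and 129 UMIs (7.85 CPM) in melanotroph-like cells, and at 0, 0 and 2 UMIs in SC-like cells. P27NULL against WT was 0.57 (0.00 to 1.16). Sox5 and Sox6, which lack an activation domain of their own and act with Sox9 in cartilage, were low throughout. Sox5 held 80, 205 and 163 UMIs (13.1, 15.0 and 9.92 CPM) in melanotroph-like cells, and S2CK against P27NULL gave −0.59 (−0.90 to −0.29). Sox6 held 15, 12 and 7 UMIs (28.2, 31.7 and 11.4 CPM) in SC-like cells, a ratio of −1.31 (−2.85 to 0.07) for S2CK against WT. In melanotroph-like cells Sox6 went the other way, with 15, 66 and 76 UMIs (2.46, 4.82 and 4.62 CPM) and a ratio of 0.91 (0.10 to 1.82) for S2CK against WT, which was −0.31 after thinning. The opposite-strand RNA Sox6os lies within Sox6 and has a row of its own.

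Sox17 and Sox18, factors of the vascular endothelium, were found mainly in endothelial-like cells, which held 22 of 23, 35 of 35 and 16 of 17 UMIs of Sox17 and 32 of 32, 27 of 30 and 28 of 37 of Sox18. The 79, 21 and 42 endothelial-like cells had Sox17 at 22 UMIs (179 CPM, 112 to 271), 35 UMIs (547 CPM, 381 to 761) and 16 UMIs (140 CPM, 80.0 to 227), and Sox18 at 32 UMIs (260 CPM, 178 to 368), 27 UMIs (422 CPM, 278 to 614) and 28 UMIs (245 CPM, 163 to 354). Sox17 in P27NULL stood above both other libraries, 3.06-fold above WT (log2 ratio 1.61, 0.80 to 2.45), from 10 of 21 cells with a UMI. Sox18 in P27NULL gave 0.70 (−0.10 to 1.48) against WT. Both genes were in the same cell in 8, 8 and 3 endothelial-like cells. Sox17 had 0 UMIs in the melanotroph-like cells of all 3 libraries, which allows up to 0.235%, 0.0849% and 0.104% of cells with a UMI and sets no limit on cells that express the gene.

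Sox10, a factor of neural crest and Schwann cells, was at 3 UMIs in all of WT. S2CK had 6 UMIs, 4 of them in 2 of 9 pituicyte-like cells and 2 in SC-like cells. Of the 7 other Sox genes with a row, Sox13 reached 10 UMIs in each library (18, 31 and 35 UMIs over all cells), and was at 1.64, 1.46 and 1.76 CPM in melanotroph-like cells. Sox8, a relative of Sox9 and Sox10, reached 11 UMIs in S2CK, of which 9 were in 3 of the 9 pituicyte-like cells. The noncoding RNA Sox2ot, which overlaps Sox2, had no row.

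Whether other Sox genes followed Sox2 in S2CK was read as the number of members 2-fold or more apart, counting a member where both tables list it and its summed UMIs reached 20. In SC-like cells of S2CK against P27NULL, 1 of 3 members was 2-fold or more lower, Sox2, where 7.44% of 6173 genes were, and 0 of 3 higher, where 5.04% of genes were. Against WT it was 2 of 5 lower, Sox2 and Sox6, beside 5.86% of 6659 genes, and 0 of 5 higher beside 5.45%. P27NULL against WT had 0 of 5 lower and 0 of 5 higher, beside 3.04% and 4.30% of 5858 genes. Members other than Sox2 thus gave 1 gene past 2-fold, Sox6, whose interval against WT reached 0. Against P27NULL, with 19 UMIs and so under the minimum, Sox6 was at −1.48 (−3.07 to −0.02), 2.79-fold lower.

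In melanotroph-like cells none of 7 members was 2-fold or more lower or higher in S2CK against P27NULL (4.74% of 13474 genes lower, 1.72% higher) or against WT (3.18% of 12975 genes lower, 3.13% higher). In P27NULL against WT 1 of 7, Sox11, was higher, where 3.54% of 12945 genes were, and 0 of 7 lower, where 1.35% were. The median log2 ratio of the members in SC-like cells was 0.17, −0.61 and −0.45 in P27NULL against WT, S2CK against P27NULL and S2CK against WT, beside 0.01, −0.09 and −0.09 over all genes. These medians are of only 5, 3 and 5 members, with the floxed gene Sox2 among them. Both medians for S2CK are the value of Sox4, so no change of the family was read from them. In melanotroph-like cells the median of the 7 members, also with Sox2, was 0.49, −0.07 and 0.49, beside 0.09, −0.15 and −0.04. The 3 contrasts share libraries with each other.

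**Figure D4:**
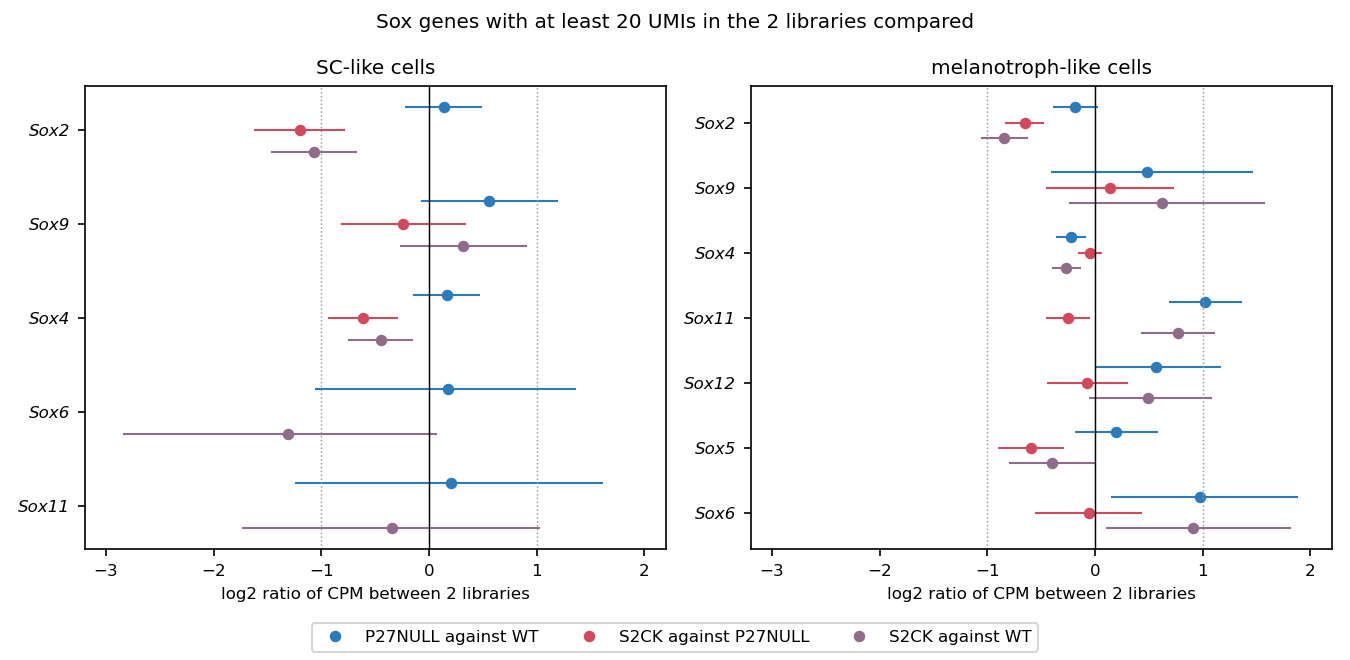
Log2 ratio of CPM between 2 libraries for each member with at least 20 UMIs in them, in SC-like (left) and melanotroph-like cells (right), with exact 95% intervals; dotted lines mark 2-fold. In SC-like cells Sox2 lies at −1.20 and −1.06 for S2CK while Sox9 spans 0, and in melanotroph-like cells Sox11 lies at 1.02 for P27NULL against WT.

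Genes with a level most like that of Sox2 were sought over 27 sums of library and cell type, among 7157 genes, by Pearson's r of log2(CPM + 1). The 5 closest were Mlf2 (0.88), Aldoc (0.83), Fzd3 (0.83), Epb41l4b (0.82) and Cldn3 (0.81). For Sox9 they were Aqp4 (0.83), Slc1a4 (0.83), Plppr1 (0.83), Pax6 (0.81) and Lgi1 (0.80), and Sox2 and Sox9 themselves had 0.61. Sums of 1 library share its depth and free RNA, and these values are a description. In SC-like cells Aldoc, a glycolytic enzyme, was at 838, 1092 and 532 CPM, and Cldn3, a tight junction protein, at 487, 415 and 450 CPM, and of the 5 genes Cldn3 was the one whose lowest level was not in S2CK.

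A list of 30 transcription factors of pituitary and other progenitors was chosen with earlier results of these data known, so its counts are a description. Of these, 22 had 20 or more UMIs in SC-like cells of S2CK and P27NULL, and 6 were 2-fold or more lower and 1 higher in S2CK, with a median of −0.24, where 7.44% of all genes were lower and 5.04% higher. The 6 were Pitx1, a pituitary homeobox factor (137.5 to 58.4 CPM, ratio −1.23), Hes1, a Notch target (933 to 453 CPM, −1.04), Klf4, a pluripotency factor (111 to 45.5 CPM, −1.29), Id2 (129.6 to 58.4 CPM, −1.15), Id3 (444 to 214 CPM, −1.05) and Tgif1 (95.2 to 34.1 CPM, −1.48). Klf5 was higher (23.8 to 61.7 CPM, 1.37). In P27NULL against WT 0 of 23 were lower and 5 higher, namely Hes1 (1.12), Klf4 (1.72), Id1 (1.79), Id3 (2.36) and Tgif1 (1.14), beside 3.04% and 4.30% of all genes. In S2CK against WT 1 of 23 was lower, Id4 (−1.11), and 2 were higher, Id1 (1.08) and Id3 (1.31), beside 5.86% and 5.45%. The Id proteins block basic helix-loop-helix factors, and unlike Sox2, Id1 and Id3 in S2CK lay above WT. Of 20 known targets of Sox factors 1 to 4 had enough UMIs in a contrast, too few for a count.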

How the data were processed

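UMI counts per gene and cell were deposited by the authors as raw counts, 1 table per library, made from 10x 3′ libraries with Cell Ranger 3.0.2 (the submitters' processing notes also name STAR 2.5.1b, R 3.6.0, Seurat 3 and mm10). The study states that cells under 50 genes or over 10% mitochondrial reads were removed. Depth was 8332285 to 19239147 UMIs per library.

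Each library alone, and the 3 together, were clustered without Sox genes (scanpy 1.11.5, igraph 0.11.9, Python 3.11.15; 2000 variable genes, 20 components, 20 neighbours, Leiden resolution 1). Clusters were named from marker lists (score of at least 0.3, lead of 0.05, 3 detected markers, folds with 10 CPM added). These thresholds were set after seeing the data, in a second version of the rule, since the first left the SC cluster of S2CK unnamed; no Sox level by cell type had been viewed. Scrublet marked 11 of 9661 cells, so it had not worked and no cell was removed as a doublet. SC-like and melanotroph-like cells took their name from the clusters of their own library, except that SC-like cells in a joint pituicyte cluster were named pituicyte-like. Other cells took the name of their joint cluster, or kept that of their own library where the joint one was SC or melanotroph. This left 10 cells of P27NULL and 127 of S2CK with no name, which entered no cell type.

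UMIs were summed per library and cell type (scipy 1.17.1, pandas 2.3.3, numpy 2.4.6). CPM had exact Poisson, shares exact Clopper-Pearson and ratios exact conditional intervals, at 95%. A count of 0 allows up to 3 counts. With 1 library per genotype no test was made. The ratios were tested on simulated data, where intervals covered the set values of 96.8% of 6173 genes (SC-like cells) and 95.9% of 13474 (melanotroph-like cells), S2CK against P27NULL. This is a check of the computation and does not cover differences between animals, which 1 library per genotype cannot show.

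Genes named were the 10 members, other Sox genes with at least 10 UMIs in 1 library, the 5 genes most like Sox2 and Sox9 (sums of at least 50000 UMIs, genes of at least 50 CPM in 1 sum), and listed factors 2-fold apart. The members and lists were chosen with earlier results of these data known. Alternatives were TMM factors (edgeR 4.0.16, R 4.3.3), another total, other UMI minimums, thinning, other clusterings, doublet scores and cells of 1 sex.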

Additional observations from a re-analysis of the deposited data

Results flagged for a closer look

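In melanotroph-like cells 6 log2 ratios stood out because a contrast gave opposite signs in the male and the female cells of P27NULL, cells of 1 pool told apart by Xist. The split by sex was added after its values had been seen, and the differences between the 2 contrasts of each pair were not tested. Sox11 in S2CK was 0.95 above the female cells and at −0.46 against the male cells. Sox4 in P27NULL against WT was −0.42 in male and 0.29 in female cells. Sox4 in S2CK was −0.56 against the female and 0.15 against the male cells. The female cells had a median of 3770 UMIs and the male cells 2676, and the part of depth was not tested.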

How the results depend on the processing

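No paired analysis was possible because each genotype has 1 library. Of 418 values under alternatives 372 stayed within the error of the main value or within 1.5 times a main count and the others moved further; the causes were not tested. Of 269 log2 ratios under alternatives 20 had the other sign, 16 of them where the main interval held 0. Sox2 in S2CK stayed lower in every alternative run (log2 ratio −1.87 to −1.07 against P27NULL and −1.87 to −0.96 against WT in SC-like cells). The 4 that turned from a main interval off 0 were Sox4 in SC-like cells (0.39) and Sox11 in melanotroph-like cells (0.95), both S2CK against female P27NULL cells, and Sox6 in thinned melanotroph-like cells, P27NULL (−0.12) and S2CK (−0.31) against WT. Thinning moved Sox2 to −0.46 (P27NULL) and −1.87 (S2CK) against WT in SC-like cells and to −0.57 and −1.11 in melanotroph-like cells, Sox9 in SC-like cells to 1.33 (P27NULL against WT), −1.85 (S2CK against P27NULL) and −0.52 (S2CK against WT), and Sox4 to 0.58 and −0.05 against WT in SC-like and −0.50 and −0.48 in melanotroph-like cells. Sox4 in melanotroph-like cells gave −0.42 (male P27NULL against WT) and, S2CK against P27NULL, 0.09 with TMM factors, 0.08 with another total (Pomc, ribosomal protein and mitochondrial genes left out) and −0.56 against female cells. Sox2 in S2CK against female P27NULL SC-like cells gave −1.87. Cells with both Sox2 and Sox9 were 2.15%, 7.69% and 1.35% after thinning, 5.56% in female P27NULL cells and 5.08% in S2CK cells of at most 10000 UMIs. Members past 2-fold in SC-like cells were 1 lower and 1 higher (P27NULL against WT), 2 lower and 2 higher (S2CK against P27NULL) and 2 higher (S2CK against WT) with a minimum of 1 UMI. They were 2 lower for S2CK against P27NULL with a minimum of 10 UMIs, thinning or pituicyte-like cells kept, 1 higher for P27NULL against WT with thinning, and 1 lower for S2CK against WT with the other total, thinning or cells of at most 10000 UMIs. In melanotroph-like cells P27NULL against WT had 2 higher with a minimum of 1 UMI or joint clusters and 0 with TMM factors, the other total, thinning or cells of at most 10000 UMIs; S2CK had 1 higher against each with a minimum of 1 UMI and 1 lower against WT with thinning. TMM factors moved the median of all genes by 0.13 in S2CK against P27NULL. Keeping pituicyte-like cells and the limit of 10000 UMIs were chosen after seeing the data.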
